A study of Mus musculus with 2 samples.

Results

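The 6 microRNA (miRNA) genes described here lie inside 3 ion channel and receptor genes and were measured in mouse hippocampus. They are Mir204, in the ion channel gene Trpm3, its relative Mir211, in the ion channel gene Trpm1, and Mir448, Mir764, Mir1264 and Mir1298, in the serotonin receptor gene Htr2c. They were found by gene symbol in the GENCODE M21 annotation, and all 6 of 6 were found among the 2202 miRNA genes measured. The set was chosen by known expression in choroid plexus, of miR-204 and of the host gene Htr2c, with Mir211 added as a relative of Mir204. Measured values from these same libraries, in which Mir204 and Mir1298 were lower in replicate 2, also entered the choice. Levels and differences between the libraries are therefore given as a description, with no test.

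The samples were small RNA libraries of hippocampus tissue from adult wild-type C57BL/6 mice (strain B6NCrl), 6 months of age and described as male. The labels call the tissue a layer of hippocampus and name no layer, and they give no treatment or other genotype. There was 1 group of 2 libraries, numbered biological replicates 1 and 2. Both libraries carry 1 donor identifier with separate biosample identifiers, and nothing states that they came from separate animals. The spread between them may therefore be technical. Replicate 1 held 4247092 reads counted on miRNA genes and replicate 2 held 5041568. Levels are in CPM, the count for each 1000000 of those reads. The level of 3 counts was 0.706 CPM in the replicate 1 library and 0.595 CPM in the replicate 2 library.

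A miRNA is a short RNA cut from a hairpin precursor, and its seed, bases 2 to 8, directs it to messenger RNAs. A miRNA that lies in an intron can be made from the transcript of its host gene. The choroid plexus is the epithelial tissue of the brain ventricles that secretes cerebrospinal fluid, and its epithelium is known for high Htr2c, the gene of a serotonin receptor, and for high miR-204. Htr2c is also known to be expressed in neurons. Trpm3 encodes a cation channel of choroid plexus, retinal pigment epithelium and neurons. Trpm1 encodes a related channel of melanocytes and retinal bipolar cells, and miR-211 is known from pigment cells.

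Mature sequences in RefSeq (GRCm38.p6) were matched for all 6 genes, 11 arms in all, and are shown to set the related pair, Mir204 and Mir211, beside the members in Htr2c. For Mir1264 the 3p arm alone is shown. Where reads fall within a hairpin was not measured here. Capitals mark the seed, and sequences run 5′ to 3′. The first 4 belong to Mir204 and Mir211, which share a seed on the 5p arm.

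miR-204-5p: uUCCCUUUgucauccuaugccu

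miR-211-5p: uUCCCUUUgucauccuuugccu

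miR-204-3p: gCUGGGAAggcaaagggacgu

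miR-211-3p: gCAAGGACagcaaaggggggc

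The other 7 arms belong to the members in Htr2c, which have no seed in common with each other or with Mir204.

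miR-1298-5p: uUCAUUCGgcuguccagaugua

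miR-1298-3p: cAUCUGGGcaacugauugaacu

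miR-1264-3p: cAAAUCUUauuugagcaccugu

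miR-764-5p: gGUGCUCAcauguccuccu

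miR-764-3p: aGGAGGCCauaguggcaacugu

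miR-448-5p: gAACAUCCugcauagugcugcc

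miR-448-3p: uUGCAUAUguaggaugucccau

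The 11 arms carry 10 distinct seeds. Positions were counted from 1 at the 5′ end of miR-204. The 5p arms of miR-204 and miR-211 were identical at 21 of 22 positions and differed by A17U, outside the seed. Their 3p arms were identical at 14 of 21 positions, and 3 of the 7 differences, U3A, G4A and A8C, lay in the seed. No arm of a member occurred whole in the RefSeq hairpin of another miRNA gene searched. The longest stretch that the Mir204 and Mir211 hairpins shared was 17 bases. Reads are counted per hairpin, and the counts do not tell the 2 arms of a hairpin apart. The hairpins of this pair follow, with the mature arms in capitals, because their sequences are close and their levels are far apart.

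Mir204 hairpin: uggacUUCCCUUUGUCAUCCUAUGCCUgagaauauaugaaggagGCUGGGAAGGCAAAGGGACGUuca

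Mir211 hairpin: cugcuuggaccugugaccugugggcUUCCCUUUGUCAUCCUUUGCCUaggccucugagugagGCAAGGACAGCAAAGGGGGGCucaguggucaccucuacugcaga

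Mir1298 hairpin: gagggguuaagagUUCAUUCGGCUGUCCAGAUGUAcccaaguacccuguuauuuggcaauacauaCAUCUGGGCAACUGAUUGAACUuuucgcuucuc

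The Mir1298 hairpin is shown because this gene held most of the Htr2c counts in both libraries. The longest stretch it shared with any other searched hairpin was 12 bases.

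Mir204 had the highest level of the 6 genes in both libraries. It lies on the plus strand at chr19:22750605-22750672 (mm10, ENSMUSG00000065507.3), in intron 6 of the Trpm3-201 transcript, and no exon of Trpm3 overlaps it. Mir204 had 30162 counts in replicate 1 and 14017 in replicate 2, which are 7102 and 2780.3 CPM (4941 ± 3056 CPM, SD, n = 2). It ranked 27 of 2202 genes in replicate 1 and 52 in replicate 2. The level in replicate 1 was 2.55 times that in replicate 2. Its log2 ratio of replicate 2 over replicate 1 was −1.35 (exact 95% binomial interval −1.38 to −1.32). All such intervals cover counting error only, and 0.5 counts were added to each library before the ratio was taken.

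Mir211, whose 5p arm carries the same seed as miR-204-5p, stood at the other end of the range. It lies on the plus strand at chr7:64205806-64205911 (ENSMUSG00000065585.1), in intron 6 of Trpm1-201, and no exon of Trpm1 overlaps it. Mir211 had 25 and 20 counts in replicates 1 and 2, or 5.89 and 3.97 CPM (4.93 ± 1.36 CPM, SD, n = 2). It was the only member below 10 CPM in both libraries. The Mir204 count was 1206 times the Mir211 count in replicate 1 and 701 times in replicate 2. The log2 ratio of Mir211 was −0.56 with an interval of −1.49 to 0.34, so that no difference between the libraries was detectable at this depth. A further arm with this seed, miR-7670-3p, belongs to Mir7670, which had 1 count in replicate 1 and 0 in replicate 2. Among the genes searched, nearly all counted reads of those with this 5p seed therefore stood on Mir204. Reads with several possible places are missing from these counts.

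Mir1298 had the highest level of the genes in Htr2c and the widest gap between the libraries of the 6 members. It lies at chrX:147064905-147065002 (ENSMUSG00000080331.1), in intron 2 of Htr2c-201. It had 8992 counts in replicate 1 and 1308 in replicate 2, or 2117 and 259 CPM (1188 ± 1314 CPM, SD, n = 2). Its rank was 62 in replicate 1 and 154 in replicate 2. The level in replicate 1 was 8.16 times that in replicate 2, with a log2 ratio of −3.03 (interval −3.11 to −2.94). The 2 values lie so far apart that the SD is larger than the mean.

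Mir1264 shares intron 2 with Mir1298 and was likewise lower in replicate 2. It lies at chrX:147010601-147010686 (ENSMUSG00000093122.1). Mir1264 had 218 and 78 counts, or 51.3 CPM in replicate 1 and 15.5 CPM in replicate 2 (33.4 ± 25.4 CPM, SD, n = 2). The level in replicate 1 was 3.32 times that in replicate 2, and the log2 ratio was −1.72 (interval −2.12 to −1.35). That interval does not overlap the interval of Mir1298, so the gap was narrower for Mir1264 beyond counting error.

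Mir764 lies in the same intron as both and had nearly the same level in both libraries. It lies at chrX:147002259-147002366 (ENSMUSG00000076458.1). Mir764 had 147 and 181 counts, or 34.6 and 35.9 CPM (35.3 ± 0.912 CPM, SD, n = 2). Its log2 ratio was 0.05 (interval −0.27 to 0.38), and it turned to −0.02 with TMM scaling and with the size factors of DESeq2. No difference between the libraries was detectable for Mir764 at this depth, and its interval does not reach the values of Mir1264 or Mir1298.

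Mir448 is the member in another intron of Htr2c, intron 4, at chrX:147158210-147158321 (ENSMUSG00000065450.1). It had 327 and 312 counts, or 77.0 and 61.9 CPM (69.4 ± 10.7 CPM, SD, n = 2). The level in replicate 1 was 1.24 times that in replicate 2, with a log2 ratio of −0.32 (interval −0.54 to −0.09). Mir448 was thus slightly lower in replicate 2, by far less than Mir1298 or Mir1264.

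**Figure D1:**
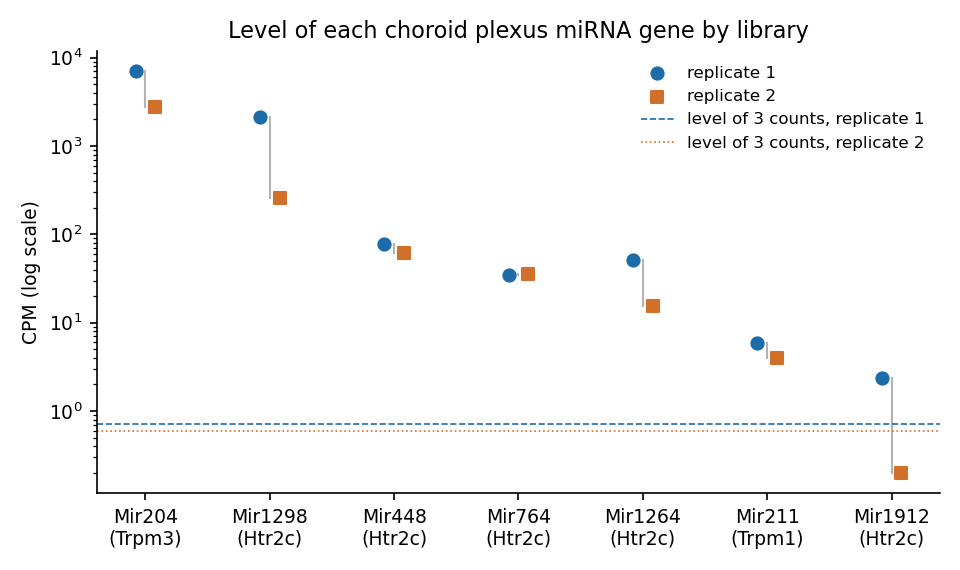
CPM of each of the 6 genes, and of Mir1912 as a further gene of Htr2c, on a log axis; circles are replicate 1, squares replicate 2, and the dashed and dotted lines mark the level of 3 counts in each. Mir204 (7102 and 2780.3 CPM) and Mir1298 (2117 and 259 CPM) lead in both libraries, and the 2 points of Mir764 (34.6 and 35.9 CPM) lie side by side.

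The order of the mean levels was Mir204, Mir1298, Mir448, Mir764, Mir1264 and Mir211. A miRNA read covers the whole mature molecule, so CPM was not divided by length for this order. Divided by the length of the annotated hairpin, Mir1264 stood above Mir764 (0.388 and 0.326 CPM per base) and the other 4 genes kept their places. Mir764 and Mir1264 could not be ordered: Mir1264 had 1.48 times the count of Mir764 in replicate 1 and 0.431 times in replicate 2. For every other pair of neighbours in the order, the ranges over the 2 libraries did not overlap. Mir204 had 3.35 times the count of Mir1298 in replicate 1 and 10.7 times in replicate 2. Mir1298 had 27.5 times the count of Mir448 in replicate 1 and 4.19 times in replicate 2. The steps between these genes thus differed more between the libraries than their order did.

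The 4 genes in Htr2c were then set side by side, since they lie on 1 strand of 1 host gene. Htr2c spans chrX:146962513-147197277 on the plus strand, and no exon of it overlaps any of them. From the start of the gene, Mir764 lies at 39.7 kb, Mir1264 at 48.1 kb, Mir1298 at 102.4 kb and Mir448 at 195.7 kb. Intron 2 of Htr2c-201, with the first 3, is 90779 bases long, and intron 4, with Mir448, is 93522 bases long. Together the 4 genes had 9684 counts in replicate 1 and 1879 in replicate 2, or 2280.2 and 373 CPM (1326 ± 1349 CPM, SD, n = 2). The log2 ratio of the sum was −2.61 (interval −2.69 to −2.54), a level 6.12 times as high in replicate 1. Without Mir1298 the other 3 had 163 and 113 CPM, 1.44 times as high in replicate 1 (log2 ratio −0.52, interval −0.69 to −0.36). Most of the gap in the sum came from this single gene.

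The make-up of the Htr2c counts differed between the libraries. Mir1298 made up 92.9% of the 4 genes' counts in replicate 1 (exact 95% binomial interval 92.3 to 93.4%) and 69.6% in replicate 2 (67.5 to 71.7%). The Mir448 share was 3.38% in replicate 1 (3.03 to 3.76%) and 16.6% in replicate 2 (14.9 to 18.4%). The Mir764 share was 1.52% (1.28 to 1.78%) and 9.63% (8.34 to 11.1%). Mir1264 went from 2.25% (1.96 to 2.57%) in replicate 1 to 4.15% (3.29 to 5.15%) in replicate 2, although its CPM was lower there. For each of the 4 shares the intervals of the 2 libraries did not overlap. In these 2 libraries the 4 genes were therefore not counted in 1 ratio, beyond counting error alone. Position in the same intron did not go with the same difference. The set was chosen partly because Mir1298 was lower in replicate 2, and a lower Mir1298 share raises the other 3 shares. The 2 libraries cannot tell technical from biological spread in the shares of the 4 genes. The ratio of Mir448 to Mir764 differed least of the 6 pairs of these genes, at 2.22 in replicate 1 and 1.72 in replicate 2. That of Mir1298 to Mir764 differed most, at 61.2 and 7.23.

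**Figure D2:**
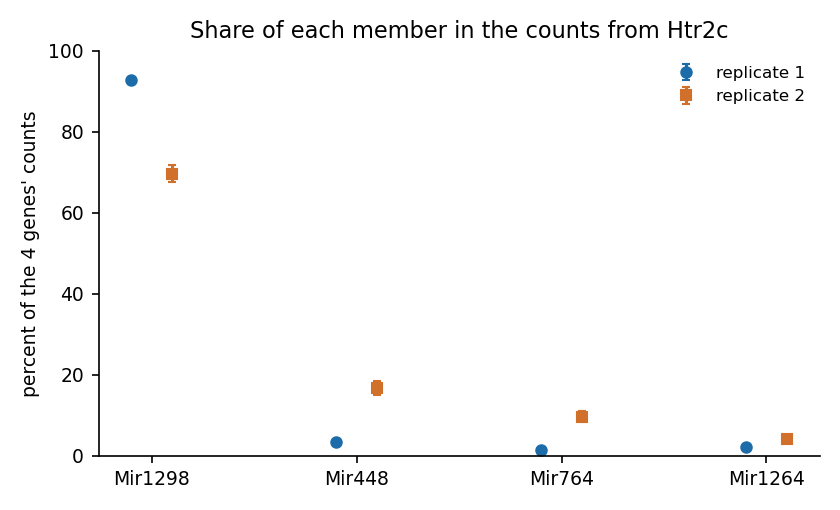
Percent of the summed counts of the 4 members in Htr2c that each gene held; circles are replicate 1, squares replicate 2, and bars are exact 95% binomial intervals, which cover counting error only. Mir1298 holds 92.9% in replicate 1 and 69.6% in replicate 2, and the other 3 genes hold larger shares in replicate 2.

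The annotation places 3 further miRNA genes inside Htr2c. Mir1912, which lies 46.9 kb from the start of the gene in intron 2 beside Mir1264, had 10 counts in replicate 1 and 1 in replicate 2, or 2.35 and 0.198 CPM. Its log2 ratio was −3.05, and the interval of −9.01 to −0.76 is wide because the ratio rests on 11 counts. Its direction was that of Mir1264 and Mir1298. Gm22650, 36.9 kb from the start, had 34 and 63 counts (8.01 and 12.5 CPM), with a log2 ratio of 0.63 (interval 0.02 to 1.29). This gene is the nearest to Mir764. It was somewhat higher in replicate 2, by a margin that TMM scaling, which moves every log2 ratio by −0.07, takes into the counting error. Gm24627, in intron 4, had 0 counts in both libraries, as did Mir6416, which lies inside Trpm1 on the opposite strand. No other miRNA gene lies in Trpm3. The opposite-strand counts of all 6 members were 0 in both libraries.

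**Figure D3:**
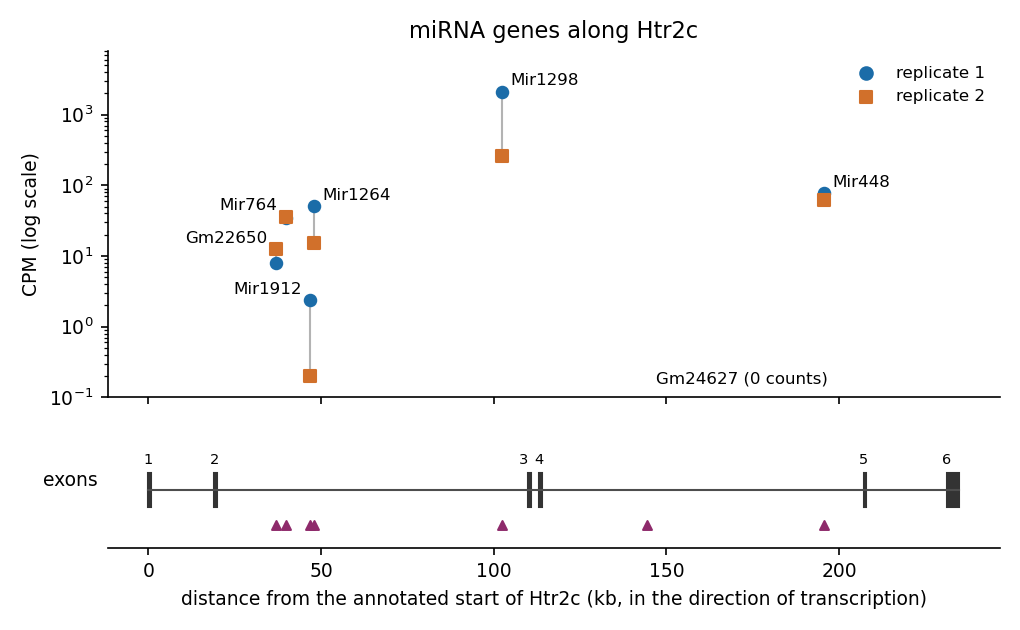
CPM on a log axis against distance in kb from the annotated start of Htr2c, with the exons of Htr2c-201 as numbered blocks (thin exons are widened to be visible) and each miRNA gene as a triangle; circles are replicate 1 and squares replicate 2. Mir1912, Mir1264 and Mir1298 are lower in replicate 2, Mir764 has nearly the same level in both, Mir448 is slightly lower in replicate 2 (77.0 and 61.9 CPM), Gm22650 is slightly higher in replicate 2, and Gm24627 is named without a point because it has 0 counts.

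The differences were read against all genes measured. All 6 members had at least 10 counts over both libraries, as had 522 genes in all. A gene was called when the libraries were over 2-fold apart. Mir204, Mir1264 and Mir1298, 3 of 6 members, were over 2-fold lower in replicate 2, against 6.90% of the 522 genes. None of the 6 was over 2-fold higher, against 9.20% of the genes. Since the members were chosen partly from this same difference, the count supports nothing beyond itself. The median log2 ratio was −0.96 over the 6 members and 0.09 over all 522 genes. Among the 522, only 3 genes had a log2 ratio below that of Mir1298, 11 had one below that of Mir1264 and 19 below that of Mir204. Mir211 had 84 genes below it, Mir448 132 and Mir764 243. Mir764, Mir448 and Mir211 thus lay well inside the spread of all genes, of which the 5th and 95th percentiles were −1.18 and 1.52.

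**Figure D4:**
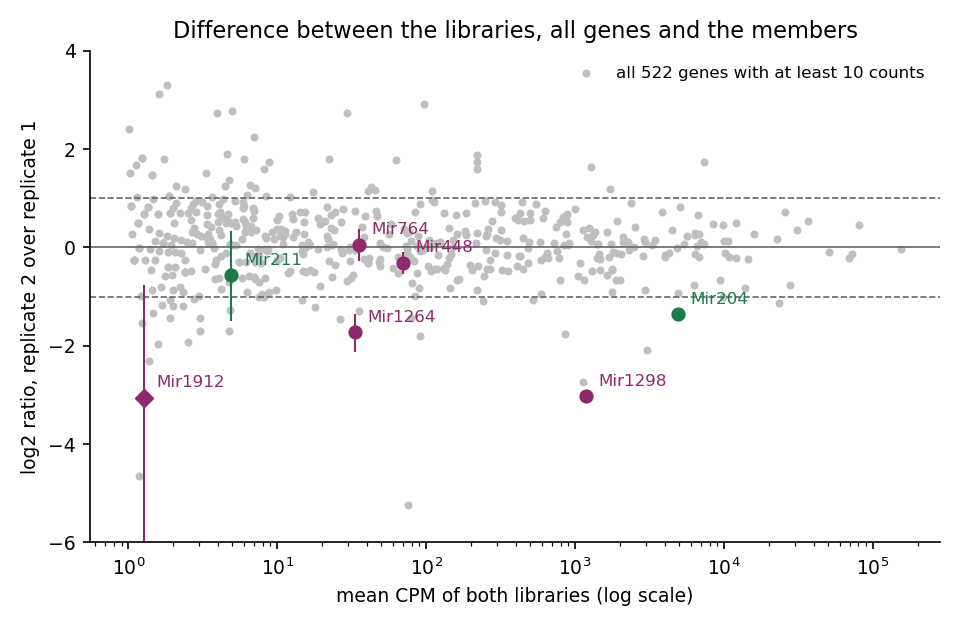
Log2 ratio of replicate 2 over replicate 1 against mean CPM on a log axis for the 522 genes with at least 10 counts (grey), with the members of Htr2c in purple, Mir204 and Mir211 in green, and Mir1912 as a diamond; bars are exact 95% intervals (the lower bar of Mir1912 runs off the axis) and dashed lines mark 2-fold. Mir1298, Mir1264 and Mir204 lie below the lower dashed line, and Mir764, Mir448 and Mir211 lie between the lines.

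The genes closest to Mir204 and Mir1298 in this ratio were looked up among the 276 genes that averaged 100 counts or more over the libraries. Likeness here is the distance in 1 log2 ratio from 2 libraries, so it says little about a shared pattern. The 5 closest to Mir204 were Mir135b (50.4 and 20.6 CPM in replicates 1 and 2), Mir206 (116 and 42.6 CPM), Mir203 (38.6 and 14.1 CPM), Mir132 (32072 and 14605 CPM) and Mir496a (328 and 154 CPM). Their log2 ratios lay between −1.45 and −1.09, within 0.27 of Mir204. The closest to Mir1298 was Mir34c, at 1959 and 296 CPM (log2 ratio −2.73, 0.30 away). The next were Mir222 (4948 and 1164 CPM), Mir34b (141 and 40.5 CPM), Mir31 (1326 and 392 CPM) and Mir1264. These 4 lay 0.94 to 1.30 away from Mir1298, so that Mir34c alone of the 276 genes stood near it. Mir1912, with too few counts for this search, had a log2 ratio of −3.05 (interval −9.01 to −0.76).

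Lists of miRNA genes known from cell types of brain and of other tissues were measured beside the members. The choroid plexus list, the 6 members and Mir1912, reached 9390.2 CPM in sum in replicate 1 against 3157 CPM in replicate 2. It was 2.97 times as high in replicate 1, and none of its 7 genes was at 0. Mir204 and Mir1298 held most of this sum, and the set was chosen partly because both were lower in replicate 2. This ratio was therefore fixed in part by the choice and is no evidence on cell types. Without the members the list holds Mir1912 alone (2.35 and 0.198 CPM). The list of ciliated cells and ependyma, which line the ventricles, summed to 2117 and 365 CPM, 5.81 times as high in replicate 1. Of its 3 genes with at least 10 counts, Mir34c and Mir34b were over 2-fold lower in replicate 2. That is 2 of 3, against 6.90% of the 522 genes, and the median log2 ratio of the 3 was −1.80. Mir34c and Mir34b both lie on chromosome 9 and need not be independent. Mir34c alone had 1959 and 296 CPM, most of the sum in both libraries. Mir449a, of the same seed family, was higher in replicate 2, at 17.7 and 28.0 CPM (log2 ratio 0.66, interval 0.25 to 1.09). Mir449c had 1 and 3 counts, and Mir449b was at 0. The genes of this list thus did not share 1 direction. The part of ciliated cells in the differences of the members was not tested. In 2 libraries of bulk tissue, fewer cells of a type, less RNA per cell and a technical difference between the libraries cannot be told apart.

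The lists of other epithelium and of the sensory cluster, which hold miRNAs of other epithelial and sensory cells, had higher sums in replicate 2. Other epithelium summed to 375 and 707 CPM in replicates 1 and 2, and of its 7 genes 3 were over 2-fold higher in replicate 2 and 1, Mir203, over 2-fold lower. Of the 522 genes, 9.20% were over 2-fold higher and 6.90% over 2-fold lower. In this list 3 of 7 genes had a log2 ratio below 0 and the median was 0.16, so its genes did not share 1 direction. Its leading genes were Mir200b (93.0 and 345 CPM) and Mir429 (143 and 160.3 CPM). The sensory cluster summed to 139 and 427 CPM, with 2 of 3 genes over 2-fold higher in replicate 2, led by Mir183 (109 and 327 CPM) and Mir182 (28.0 and 97.0 CPM). None of these 3 genes had a log2 ratio below 0, and their median was 1.59.

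Lists of neurons, of other cell types and of pituitary and hypothalamus were measured in the same way. Of the 16 neuron genes, 15 had at least 10 counts over both libraries, and 2 of them, Mir132 and Mir129-1, were over 2-fold lower in replicate 2, against 6.90% of the 522 genes. The list summed to 209665 and 187951 CPM, led by Mir139 (156599 and 153300.1 CPM) and Mir132, and its median log2 ratio was −0.04. The lowest of the 16 were Mir124a-1 (6 and 8 counts), Mir124a-3 (5 and 5) and Mir124a-2 (2 and 0). Reads aligned to several places enter no gene's count, so low counts at genes with several copies need not mean low levels. The sum and its order are therefore not the full neuronal miRNA content. None of the genes with at least 10 counts was over 2-fold apart in the lists of oligodendrocytes (5817 and 8786 CPM, led by Mir219a-2 and Mir338), endothelium and mural cells (8456 and 8769 CPM, led by Mir126a and Mir143) and microglia and leukocytes (2926 and 2627 CPM, led by Mir150 and Mir146). The same held for pituitary and hypothalamus (2703 and 2055 CPM, led by Mir7b and Mir375) and red cells (18.8 and 23.8 CPM, led by Mir486 and Mir451a). It also held for mesenchyme of the meninges (33.9 and 29.0 CPM, nearly all Mir214, with Mir199a-2 at 0 and 3 counts and Mir199a-1 at 0 in both). The counts of the Mir199a genes carry the limit given above for reads aligned to several places. Beside these sums, the 6 members held 0.939% of the counted reads in replicate 1 (interval 0.930 to 0.948%) and 0.316% in replicate 2 (interval 0.311 to 0.321%). Mir204 alone was 75.6% of the members' counts in replicate 1 and 88.1% in replicate 2.

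**Figure D5:**
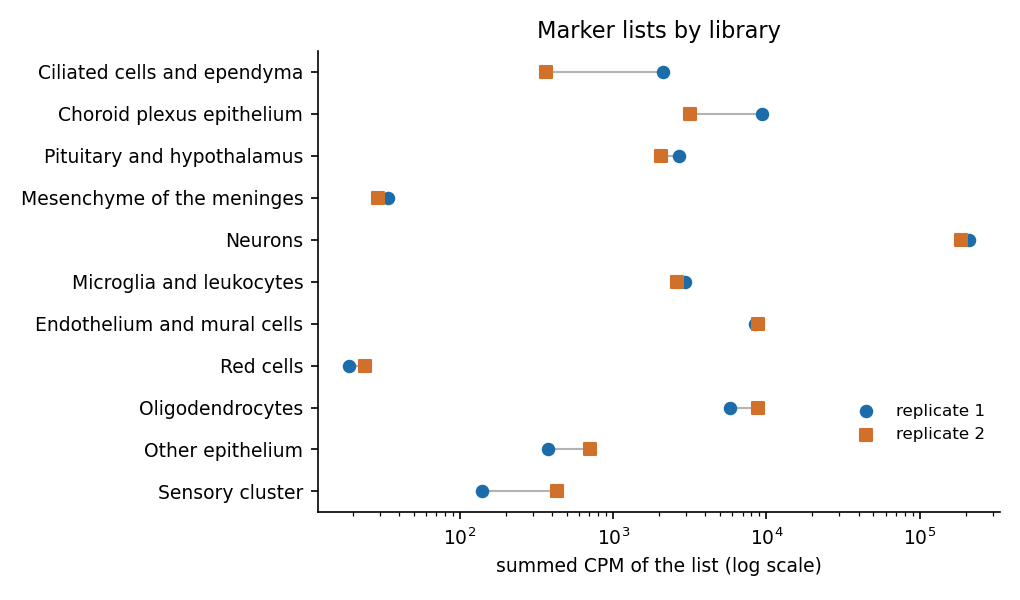
Summed CPM of each marker list on a log axis; circles are replicate 1, squares replicate 2, and the lists are ordered by the ratio of the libraries. The lists of ciliated cells (2117 and 365 CPM) and choroid plexus (9390.2 and 3157 CPM) are highest in replicate 1 relative to replicate 2, and the sensory cluster (139 and 427 CPM) is at the other end. The choroid plexus list holds the members, which were chosen partly from this same difference. The sum of the ciliated list is mostly Mir34c (1959 and 296 CPM), and its Mir449a is higher in replicate 2 (17.7 and 28.0 CPM).

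The name choroid plexus rests on what miR-204 and the host gene Htr2c are known for. Mir211 is in the set as a relative of Mir204. The tables hold miRNA genes alone, so the defining messenger RNAs of that epithelium were not measured here, and Trpm3 and Htr2c transcripts were not measured either. Of the 6 members, Mir204 and Mir1298 had the highest levels in both libraries. Both were lower in replicate 2, a difference that entered the choice of the set. Among the other members in Htr2c, Mir1264 was over 2-fold lower in replicate 2, and Mir764 and Mir448 were within 2-fold between the libraries.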

How the data were processed

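Small RNA was sequenced from 2 hippocampus libraries. The authors deposited raw counts per miRNA gene, 1 table per library, on mm10 with GENCODE M21 per the file headers. Aligner and counter: not given in the sources used here. Of the 3 count columns, that on the strand of the gene was used. Library sizes exclude the 4 summary rows. In replicates 1 and 2 they held 15.1% and 11.4% of 11106392 and 12627039 reads as unaligned, 43.8% and 45.7% as aligned to several places and 2.92% and 3.005% as outside miRNA genes. A read aligned to several places enters no gene's count.

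All 2202 genes were matched to M21 by identifier. CPM used the reads on miRNA genes. Log2 ratios had 0.5 counts added. Intervals are exact binomial (Clopper-Pearson) and cover counting error of reads only. Without molecular identifiers, each read was taken as independent, so the intervals can be too narrow. With 1 library against 1, no replicated test could be fitted, and edgeR and DESeq2 served only for scaling alternatives. Arms and hairpins are from RefSeq, and those on chromosome 18 were not searched, for seeds or for shared stretches. The ratio and interval code was tested on simulated data. Named genes were the members, other miRNA genes in the host genes, the 5 nearest in ratio to Mir204 and to Mir1298, and the 2 highest of each of 11 lists taken from textbook knowledge. Mir129-1, Mir203, Mir449a, Mir449b, Mir449c, Mir199a-1, Mir124a-1, Mir124a-2 and Mir124a-3 were named after their values were seen, and Mir7670 was named for its seed. Members and lists were chosen with earlier results of these data known. Alternatives covered the strand column, scaling, added counts, thresholds, hairpin length and each library alone. Python 3.11.15, numpy 2.4.6, pandas 2.3.3, scipy 1.17.1, matplotlib 3.10.9, R 4.3.3, edgeR 4.0.16 and DESeq2 1.42.0 were used.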

Additional observations from a re-analysis of the deposited data

How the results depend on the processing

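The 3 members over 2-fold lower in replicate 2 numbered 3 as well with a 1.5-fold threshold and with scaling to all reads, TMM or DESeq2 size factors, and 1 with a 4-fold threshold. Among all genes tested, 16.1% were over 2-fold apart. At 1.5-fold, 15.5% were lower, 23.9% higher and 39.5% apart in either direction, and at 4-fold 1.34%, 1.92% and 3.26%. Over all genes with any count the shares were 13.9%, 18.1% and 32.04%. With a mean of at least 100 counts, 5.43% were lower, 5.07% higher and 10.5% apart. The cause was not tested. Every log2 ratio moved by −0.07 with TMM, −0.08 with DESeq2 size factors and 0.06 with scaling to all reads. Of 30 alternative log2 ratios of members, 3 lay outside the counting interval, all of Mir204 (−1.43 to −1.29), and no member over 2-fold apart changed sign. Scaled to all reads, the summed level in Htr2c was 510.4 CPM. In single libraries it ranged from 373 to 2280.2 CPM and the Mir1298 share from 69.6 to 92.9%. By hairpin length, 4 of 6 genes kept their place in the order. No paired analysis was possible because there is 1 group. Depth limits Mir211 and Mir1912, and the 2 libraries cannot tell biological from technical spread.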
